A study of Drosophila melanogaster with 4 samples.

Results

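The ionotropic receptor genes of Drosophila melanogaster were followed in larvae mutant for invadolysin and in wild-type larvae. Members were all genes whose symbol in the platform annotation is Ir followed directly by a digit. This gave 52 genes, on 53 probes, of 13891 features (11980 named genes and 1911 probes without a single gene name) on 14569 probes. The current gene table lists 66 such genes, and the 14 without a matching probe, 4 of them pseudogenes, were not analysed here. They include the olfactory receptor genes Ir41a and Ir75b and the taste receptor genes Ir60b and Ir62a.

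Each of the 4 two-colour arrays set RNA of larvae of the invadolysin allele 4Y7 against RNA of Canton S wild-type larvae. Mutant RNA carried Cy5 on replicates 1 and 4 and Cy3 on replicates 2 and 3, and the flies were kept at 25 degrees. Invadolysin is a zinc metalloprotease, and the study asked how expression differs in its mutant. Details not given in the sources used here include sex, larval age, the lesion of 4Y7 and the number of animals in a sample. The RNA samples carry numbers in the labels: those numbered 1 and 2 were used with the mutant in Cy5 and those numbered 3 and 4 with it in Cy3. The dye orientation and the set of RNA samples therefore cannot be told apart.

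Ionotropic receptors are ligand-gated ion channels of sensory neurons that arose from ionotropic glutamate receptors. A tuning receptor, which sets the stimulus, is joined to a co-receptor, which is needed to bring the channel to the sensory cilium and to make it work. Ir8a serves mainly acid-sensing olfactory receptors, Ir76b serves amine-sensing olfactory receptors and many taste receptors, and Ir25a serves in smell, taste, temperature and humidity sensing. In the larva such receptors are found in the sense organs of the head and pharynx, so their messages come from few cells of the animal. A ratio holds no level, so whether sensory neuron RNA was measured above background on these arrays could not be checked. In RNA of whole animals, fewer cells of a type and less RNA per cell cannot be told apart.

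Values are log2 ratios, mutant over wild type, so that 1 is a 2-fold difference. That direction is a likely reading of the array titles and is not stated, and a reversed direction would turn every sign below. Arrays of opposite dye orientation had a mean Pearson r of 0.217 over all probes, from which the values were taken as already turned. Without replicate 1 that mean was 0.0351. Replicate 4 stood apart, with r over all features of 0.22, 0.039 and 0.041 with replicates 1, 2 and 3. Without it, limma called 0 ionotropic receptor genes and only 21 of all 13891 features. The family median was then 0.22, as against 0.23 with all arrays. The Invadolysin probe itself gave -0.12, 0.11, 0.16 and 0.25 on replicates 1 to 4, which does not check the labels because the lesion is unknown here.

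No ionotropic receptor gene passed the threshold between mutant and wild type. In limma, 0 of 52 genes had an adjusted p under 0.05, against 0.821% of all features, and the smallest adjusted p among them was 0.209. At an unadjusted limma p under 0.05, 4 genes had means above 0 (7.69% of members, against 7.91% of all features) and 0 had means below 0 (against 11.3%). The 4 genes were Ir51b, Ir68a, Ir84a and Ir94c. Most values were small: 44 of the 52 means lay within 0.5 of 0 (84.6%, against 76.8% of all features).

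The measured genes lay slightly above 0 as a family. The median of the 52 means was 0.23, against 0.016 over all features, and 40 means lay above 0 (76.9%, against 51.5% of all features). The family median was 0.29, 0.13, 0.29 and 0.13 on replicates 1 to 4, above 0 on every array and in both dye orientations. This rests on the arrays being already turned: with the mutant-in-Cy3 arrays turned in sign, the family median was 0.011. Yet 9 genes lay above 0 on all 4 arrays (17.3%, against 14.0% of all features), and 0 lay below 0 on all 4 (against 14.9%). The 9 genes were Ir48c, Ir51b, Ir76a, Ir76b, Ir84a, Ir87a, Ir92a, Ir94c and Ir94g. The gustatory and odorant receptor families also lay above 0, with medians of 0.23 over 56 genes and 0.17 over 52 genes. All 3 families lay on the same side of 0, and no test of a difference between them was run.

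**Figure D1:**
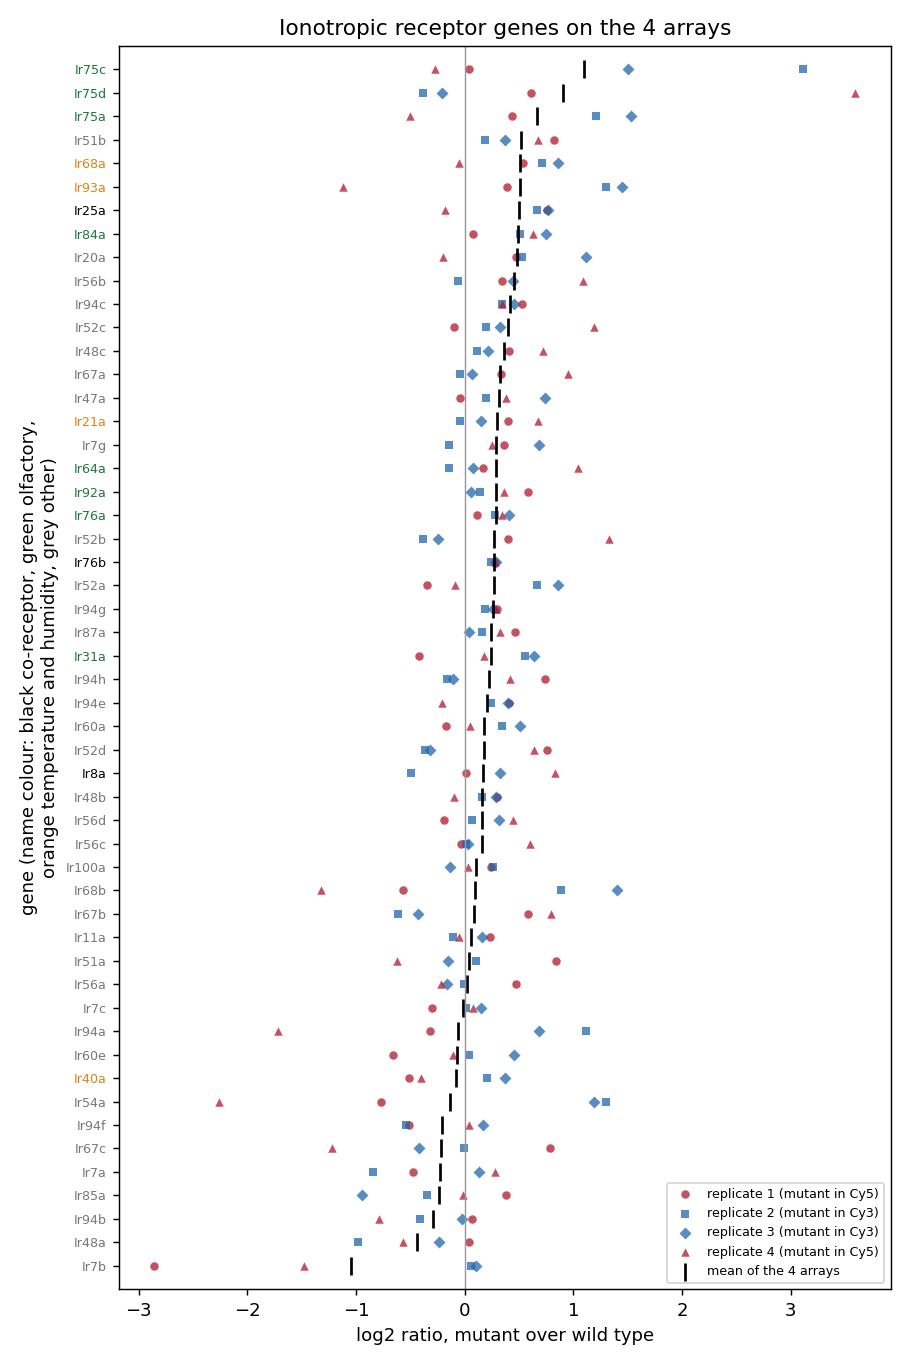
Log2 ratio of mutant over wild type (horizontal axis) of each of the 52 ionotropic receptor genes (vertical axis, ordered by mean) on the 4 arrays. Red symbols are the arrays with the mutant in Cy5, blue symbols those with it in Cy3, and black bars the means. Means run from -1.04 for Ir7b to 1.10 for Ir75c, and in many rows the red and the blue symbols stand on opposite sides of the bar.

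The co-receptor genes were measured by 1 probe each. Ir25a, the most widely used co-receptor, had values of 0.76, 0.67, 0.77 and -0.18 on replicates 1 to 4. Replicates 1, 2 and 3 were close together and replicate 4 lay below 0, far from them. The mean was 0.50 ± 0.46 (SD, n = 4; 1.42-fold; limma adjusted p = 0.280), with a 95% interval from -0.029 to 1.03. With the mutant in Cy3 alone, on replicates 2 and 3, it was 0.72 (limma adjusted p = 0.0436), in a fit where 18.5% of all features passed. With the mutant in Cy5 alone it was 0.29 (limma adjusted p = 0.843), and without replicate 4 it was 0.73 (limma adjusted p = 0.0605).

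Ir76b, the co-receptor of amine and taste receptors, had values of 0.28, 0.25, 0.29 and 0.28. These were the closest of any member, with a mean of 0.27 ± 0.019 (SD, n = 4; 1.21-fold). The limma interval ran from -0.093 to 0.64 (adjusted p = 0.375), since limma draws the spread of each gene towards that of all features. Of the members, 3 had an SD under 0.1, namely Ir76b, Ir94g and Ir94c, and 2.001% of all features did.

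Ir8a, the co-receptor of acid-sensing receptors, had values of 0.014, -0.49, 0.32 and 0.83. Both dye orientations held a low and a high value, and the SD was larger than the mean of 0.17 ± 0.55 (SD, n = 4; limma adjusted p = 0.734, interval from -0.42 to 0.76).

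The difference between the co-receptor genes and the other 49 genes was no larger than its spread between arrays. The mean of the 3 co-receptor genes was 0.35, 0.14, 0.46 and 0.31 on replicates 1 to 4, and that of the other genes 0.11, 0.20, 0.33 and 0.091. The co-receptors were higher on 3 arrays, and replicate 2 went the other way. The difference between these means was 0.24, -0.056, 0.13 and 0.22, on average 0.13 ± 0.13 (SD, n = 4). With medians over genes it was 0.092 ± 0.093, and then replicate 1 went the other way at -0.019. It was 0.23 on average over replicates 1 and 4 and 0.039 over replicates 2 and 3. No test was made, since genes are not replicates and the members were chosen with earlier results known.

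**Figure D2:**
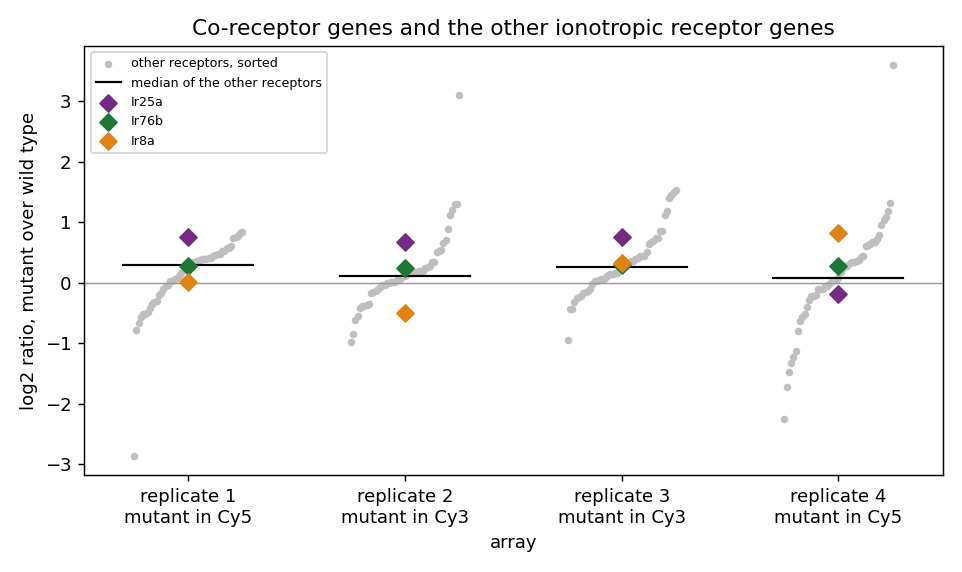
Log2 ratio of mutant over wild type (vertical axis) on each array (horizontal axis) for the co-receptor genes Ir25a, Ir76b and Ir8a (diamonds) and the other 49 genes (grey points, sorted). Black lines are the medians of the other genes. Ir76b stays at 0.25 to 0.29, Ir25a lies below 0 on replicate 4, and Ir8a runs from -0.49 to 0.83.

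The olfactory tuning receptors held the 3 highest means of the family. All 8 measured genes had means above 0, with a median of 0.39 and a range from 0.24 to 1.10, and 0 of them passed the threshold. The median of the class was 0.14, 0.39, 0.52 and 0.35 on replicates 1 to 4. In 6 of the 8 the arrays of the 2 dye orientations did not overlap, in either direction, against 54.0% of all features.

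Those 3 means belonged to the Ir75 genes, which encode receptors for short-chain acids and other odours. Ir75c, a receptor tuned to propionic acid, had values of 0.038, 3.11, 1.51 and -0.27 on replicates 1 to 4. Ir75a, an acetic acid receptor separated from Ir75c by the unmeasured gene Ir75b, had 0.44, 1.205, 1.53 and -0.51. Both were high with the mutant in Cy3 and near or below 0 on replicate 4, with means of 1.10 ± 1.55 and 0.67 ± 0.91 (SD, n = 4; limma adjusted p = 0.341 and 0.349). Ir75d, which lies apart from the others on the same chromosome arm, had 0.61, -0.38, -0.21 and 3.60. Its pattern was the opposite, high with the mutant in Cy5, with most of its mean of 0.90 ± 1.85 coming from replicate 4 (limma adjusted p = 0.490).

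The other olfactory receptors differed less between arrays. Ir84a, which detects phenylacetic acid and promotes male courtship, had values of 0.081, 0.51, 0.74 and 0.63, all above 0, with a mean of 0.49 ± 0.29 (SD, n = 4; limma adjusted p = 0.223). Ir92a, an ammonia and amine receptor, was at 0.29 ± 0.24 and Ir76a, an amine receptor that works with Ir76b, at 0.28 ± 0.13, both above 0 on all 4 arrays. Ir64a, an acid sensor that works with Ir8a, was at 0.29 ± 0.52, and Ir31a at 0.24 ± 0.48. For these last genes the SD was larger than the mean.

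Among the temperature and humidity receptors, 3 of 4 means lay above 0, with a class median of 0.40, and 0 passed the threshold. Ir68a, which senses moist air, had values of 0.54, 0.71, 0.86 and -0.052 on replicates 1 to 4. Its mean was 0.51 ± 0.40 (SD, n = 4; limma adjusted p = 0.247). Ir93a, which works with Ir25a in cooling and humidity sensing, had 0.39, 1.30, 1.45 and -1.12, with a mean of 0.51 ± 1.18 (limma adjusted p = 0.553). In both genes the 2 arrays with the mutant in Cy3 were the highest and replicate 4 the lowest. Ir21a, a cool receptor, was at 0.30 ± 0.31. Ir40a, which senses dry air, was at -0.083 ± 0.44 and was below 0 with the mutant in Cy5 and above 0 with it in Cy3.

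The remaining 37 genes, mostly receptors of taste neurons or of unknown stimulus, had a median of 0.16, and 26 of their means lay above 0. The highest was Ir51b, with values of 0.83, 0.19, 0.37 and 0.68 on replicates 1 to 4. Its mean was 0.51 ± 0.29 (SD, n = 4; limma adjusted p = 0.209), and all 4 arrays were above 0. Ir94c, at 0.53, 0.35, 0.45 and 0.35, varied little, with a mean of 0.42 ± 0.087 (limma adjusted p = 0.222). Ir20a, which acts in amino acid taste, was at 0.48 ± 0.54, and Ir56b, which acts in the taste of low salt, at 0.45 ± 0.48. Ir56d, which acts in fatty acid taste, was at 0.16 ± 0.28, Ir7c, which acts in the taste of high salt, at -0.014 ± 0.20, and Ir94e at 0.21 ± 0.29. For these taste genes other than Ir51b and Ir94c, the arrays fell on both sides of 0.

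The lowest mean was that of Ir7b, with values of -2.86, 0.058, 0.10 and -1.47 on replicates 1 to 4. It was far below 0 with the mutant in Cy5 and slightly above 0 with it in Cy3, and its mean was -1.04 ± 1.41 (SD, n = 4; limma adjusted p = 0.327). Ir48a, a pseudogene, followed at 0.036, -0.98, -0.23 and -0.56 (mean -0.43 ± 0.44). Ir94b, at 0.072, -0.41, -0.022 and -0.79, had a mean of -0.29 ± 0.39. Ir85a, at 0.38, -0.35, -0.95 and -0.016, had a mean of -0.23 ± 0.56. Ir7a, which acts in the taste of acetic acid, had -0.48, -0.84, 0.13 and 0.28 and a mean of -0.23 ± 0.52. Each of these 5 genes had at least 1 array above 0, and their limma adjusted p lay between 0.327 and 0.633.

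Genes that share a number lie in the same chromosome band, and some neighbours in the genome had opposite patterns. Ir52a, Ir52b, Ir52c and Ir52d lie next to each other on arm 2R, and Ir52c and Ir52d are known from male courtship. Their means were alike, at 0.27, 0.27, 0.40 and 0.18. Yet Ir52a was below 0 with the mutant in Cy5 and above 0 with it in Cy3 (means -0.22 and 0.76), whereas Ir52b (0.86 and -0.32) and Ir52d (0.70 and -0.34) were the reverse. On arm 3R, the adjoining genes Ir94a, Ir94b and Ir94c had means of -0.057, -0.29 and 0.42. The 22 genes with another ionotropic receptor gene as their next neighbour had a median of 0.19, and the other 30 a median of 0.24. By arm the medians were 0.27 on 2L (4 genes), 0.18 on 2R (17), 0.29 on 3L (11), 0.23 on 3R (13) and 0.058 on X (7). Probe sequences were not used here, so whether probes of similar genes share hybridization is unknown. The 2 probes of Ir48c, the gene with more than 1, had means of 0.29 ± 0.12 and 0.44 ± 0.495.

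Many genes differed between the dye orientations, here as among all features. The orientations also differ in their RNA samples. The deviation of each orientation from the mean of the 4 arrays was larger than that mean in 23 of 52 genes (44.2%, against 43.3% of all features). In 28 genes the orientations did not overlap (53.8%, against 54.0%), in 14 with the mutant-in-Cy5 arrays higher and in 14 with them lower. In 12 genes both arrays of one orientation lay above 0 and both of the other below (23.1%, against 17.2%). A dye coefficient in limma had an unadjusted p under 0.05 in 12 genes (23.1%, against 15.9% of all features). Its adjusted p was under 0.05 in 0 members, as in 0 of all 13891 features, and the smallest among members was 0.295. These shares were near or somewhat above those of all features, and no test of the difference was run.

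The orientations differed by more than 1 in 11 genes (21.2%, against 15.1% of all features). Ir54a, Ir75c, Ir7b, Ir68b, Ir94a, Ir93a and Ir75a were lower with the mutant in Cy5, by -2.76, -2.43, -2.245, -2.09, -1.92, -1.74 and -1.40. Ir75d, Ir67b, Ir52b and Ir52d were higher, by 2.40, 1.21, 1.18 and 1.04. Ir54a had the widest difference. Its values were -0.77, 1.30, 1.19 and -2.26 on replicates 1 to 4, so that a mean of -0.14 ± 1.705 stood for large values of opposite sign. Ir68b, at -0.57, 0.88, 1.40 and -1.32, and Ir94a, at -0.32, 1.12, 0.69 and -1.71, were of the same kind.

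**Figure D3:**
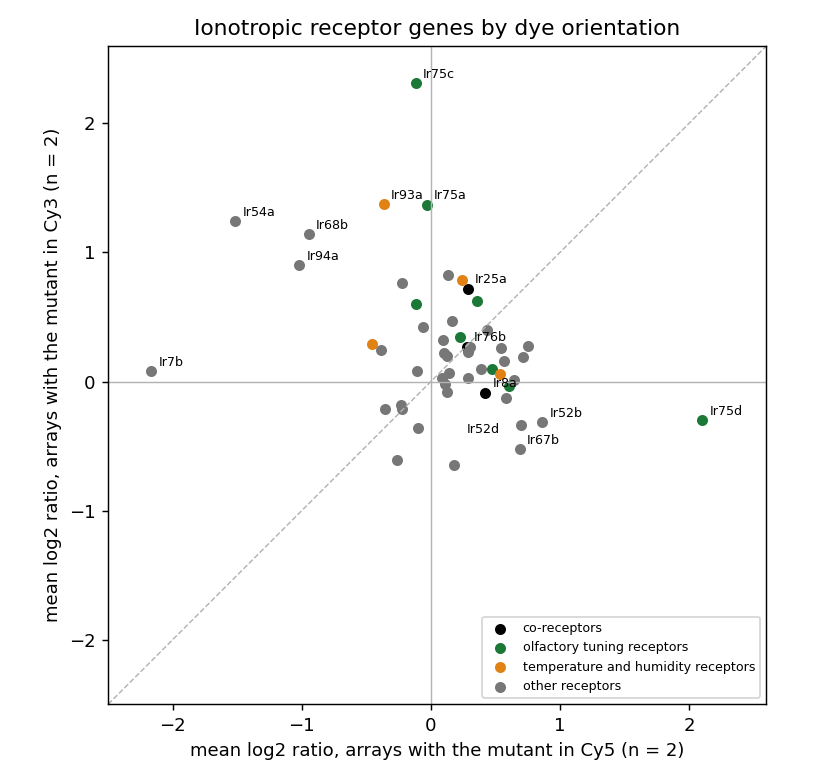
Mean log2 ratio of the 2 mutant-in-Cy5 arrays (horizontal axis) and of the 2 mutant-in-Cy3 arrays (vertical axis), 1 point per gene, coloured by role. The dashed line marks equal values. Genes that differ by more than 1 and the co-receptors are named, and Ir54a, Ir68b and Ir94a lie in the upper left, at -1.52, -0.94 and -1.02 against 1.24, 1.14 and 0.90.

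Over the 52 genes, replicates 2 and 3 were alike, replicates 1 and 4 weakly so, and arrays of opposite orientation were not. Pearson r was 0.39 between replicates 1 and 4 (Spearman rho = 0.24) and 0.78 between replicates 2 and 3 (Spearman rho = 0.78). For the opposite pairs Pearson r was -0.075, -0.19, -0.41 and -0.36. Over all features the same-orientation pairs had 0.22 and 0.65, and the opposite pairs 0.40, 0.40, 0.039 and 0.041. The mean over the mutant-in-Cy5 arrays and that over the mutant-in-Cy3 arrays had r = -0.36 (Spearman rho = -0.33) across the 52 genes, 0.30 across all 13891 features, -0.24 across 52 odorant receptor genes and -0.012 across 56 gustatory receptor genes. These are correlations across genes that share arrays and dyes, given as a description.

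Within orientations, calls depended on the arrays used. With the mutant in Cy3, limma called 8 of the 52 genes, all higher, and 2573 of all 13891 features (18.5%). With the mutant in Cy5 it called 0 of the 52 genes and only 4 of all 13891 features. The 8 genes were Ir25a, Ir52a, Ir54a, Ir68a, Ir68b, Ir75a, Ir93a and Ir94a. On the other orientation, 6 of these 8 had means below 0 and 2, Ir25a (0.29) and Ir68a (0.24), above 0. Limma with array weights, which gave replicate 2 a weight of 5.47 and replicate 4 a weight of 0.232, called 14 members higher and 2 lower (against 43.8% of all features).

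The precision of the comparison was limited by the number of arrays. The 95% limma interval reached 0.37 to 1.59 to either side of the mean, with a median of 0.52, and for 39 of 52 genes it lay within 1 of 0 on both sides. Unadjusted for the number of features, the interval lay wholly above 0 for 4 genes, Ir51b, Ir68a, Ir84a and Ir94c, none of which passed after adjustment. The median SD between arrays was 0.44 among members and 0.42 among all features.

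The medians of related gene groups lay closer to 0, with means on both sides of 0. Leaving out the sign, the median size of a mean was 0.27 in the family and also 0.27 over all features. It was 0.30 for ionotropic glutamate receptors, 0.32 for sensory cilia, 0.35 for sensory neuron determination and 0.070 for the glutamate scaffold list. Of 12 measured ionotropic glutamate receptor genes, a list that also held the glutamate-gated chloride channel gene GluClalpha, 0 passed the threshold and the median was 0.015. GluRIA, a receptor subunit of neurons, was at 0.83 ± 0.66 (limma adjusted p = 0.187). GluRIIA, a subunit at the neuromuscular junction, was at -0.45 ± 0.26 (limma adjusted p = 0.239), and GluRIID, another, at -0.33 ± 0.39. The 5 measured genes of the glutamate scaffold and transport list had a median of 0.060, with dlg1 at -0.17 ± 0.23. The median of 30 genes of sensory cilia and intraflagellar transport was 0.047, with 0 past the threshold, and nompC, a mechanosensory channel gene, was at 0.99 ± 0.85 and iav, a channel gene of hearing, at -0.41 ± 0.14. Of 11 genes of sensory neuron determination 0 passed, with a median of 0.090, and acj6, a transcription factor gene of olfactory neurons, was at -0.74 ± 0.18 (limma adjusted p = 0.0905).

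Markers of cell types were read beside the family. Of 17 neuronal markers 0 passed the threshold, their median was 0.019, and on replicates 1 to 4 it was -0.047, 0.23, 0.20 and 0.15. Of the 17, 10 means lay above 0 and 7 below, from -0.40 to 0.52, and nSyb and fne, with the smallest p, were at 0.41 ± 0.13 and 0.39 ± 0.17. Of 12 muscle markers 0 passed, all 12 had means below 0, and the median was -0.63, at -0.61, -0.82, -1.20 and -0.076 on the 4 arrays, with Msp300 at -1.03 ± 0.61. The medians of 6 fat body and 11 testis markers were -0.28 and 0.13, with 0 past the threshold. Of the fat body means 2 lay above 0 and 4 below, with apolpp at -0.46 ± 0.81 and Fbp1 at 0.26 ± 1.28. The fat body median ran from -1.035 on replicate 3 to 0.65 on replicate 1. Of the testis means 9 lay above 0 and 2 below, with Tektin-A at 0.59 ± 0.17 and bol at -0.49 ± 0.42. The part of tissue make-up in the family's shift was not tested. Of the other chemosensory families, 1 gustatory receptor gene passed above 0, Gr22c at 3.14 ± 0.99 (SD, n = 4, limma adjusted p = 0.0399). With a dye term in the fit limma called 0 features. Of the odorant receptor genes 0 passed, with Or22c, which had the smallest p, at -0.48 ± 0.13 and Or47b at 0.98 ± 0.94.

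**Figure D4:**
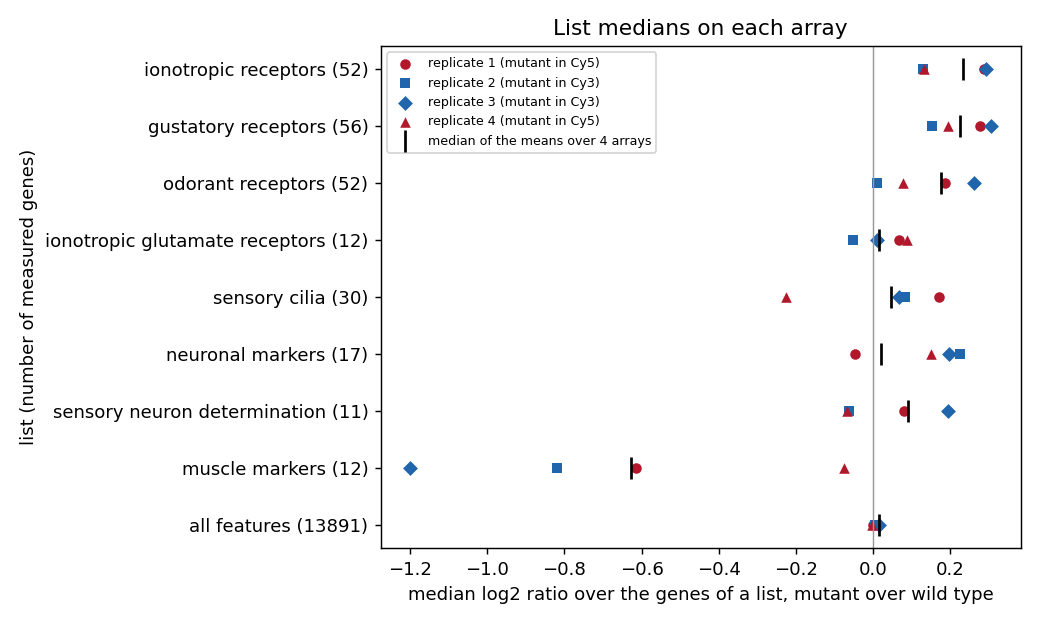
Median log2 ratio over the genes of a list (horizontal axis) on each of the 4 arrays, for 9 sets (vertical axis, number of measured genes in brackets). Red symbols are arrays with the mutant in Cy5, blue symbols those with it in Cy3, and black bars the medians of the means. The medians of the 3 chemosensory receptor families lie above 0 on all 4 arrays, though that of the odorant receptors is only 0.0092 on replicate 2. The median of the muscle markers lies below 0 on all 4, but is near 0 on replicate 4, at -0.076.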

How the data were processed

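Per the labels' protocols, total RNA was extracted with TRIzol and reverse transcribed, and Klenow fragment built Cy3 or Cy5 into copies of the cDNA. The deposited values were 1 log2 ratio per probe and array. Properties not given in the sources used here include their base (taken as 2 because values reached -13.22), direction, background correction and within-array normalization. Channel brightness was not used here. The array columns had medians of -0.0015, 0.0042, 0.013 and -0.00053 (replicates 1 to 4), with 0 missing values. The direction was read from the titles, with arrays taken as already turned if opposite orientations had a mean r above 0.1.

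Of 14569 probes, 12658 had 1 symbol in the platform annotation, 96 several and 1815 none. Probes of a gene were averaged per array. For each of 13891 features, limma 3.58.1 (R 4.3.3) fitted the mean ratio with lmFit and tested it against 0 with eBayes, two-sided, at 3.275 prior degrees of freedom. P-values were adjusted over all features by Benjamini-Hochberg, with a threshold of 0.05. Intervals are 95% limma intervals, and SDs are over the 4 arrays, taken as biological replicates as the series describes them. The fit was tested on simulated independent noise with set differences added and no dye effect. That does not test it where arrays share dye or RNA sample differences. Tables and figures were made in Python 3.11.15 with pandas 2.3.3, numpy 2.4.6 and matplotlib 3.10.9.

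Members, roles and lists were chosen with earlier results of these data known. Lists hold genes matched by symbol or synonym in the gene table. The rule for named genes let every measured member be named. It gave all array values to the co-receptors, to members past the threshold and to the 5 highest and 5 lowest means, and it took up to 4 genes with the smallest p from other lists. Array values of Ir84a, Ir93a, Ir94c, Ir54a, Ir68b and Ir94a were added after they were seen. Alternatives were scale, quantile and median normalization, turned signs, a dye term, array weights, separate orientations, probes tested singly, leaving out features over 5 in size, and leaving out each array.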

Additional observations from a re-analysis of the deposited data

Results flagged for a closer look

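In 2 of the 52 genes 1 array stood apart from the other 3. For Ir25a the gap between replicate 4 (-0.18) and its nearest neighbour (0.67) was 0.897 of the whole range, above Dixon's 95% critical value for 4 samples. For Ir56c the gap between replicate 4 (0.60) and its nearest neighbour (0.034) was 0.8997 of the range. Such gaps occur by chance in about 5% of groups, and 6.44% of all features had one.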

How the results depend on the processing

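The count of members past the threshold was 0 with a dye term, scale, quantile and median normalization, turned signs, probes tested singly, features over 5 in size left out, each array left out, and the mutant in Cy5 alone. Few features of the whole set passed under these settings. Of 13891 features, 0 passed with a dye term, with turned signs and without replicate 1, and 4 with the mutant in Cy5 alone. Without replicates 2, 3 and 4, 19, 17 and 21 passed, and under the remaining settings 90 to 217 features or probes. With so few calls, a count of 0 members cannot show stability. The member count was 8 with the mutant in Cy3 alone and 16 with array weights (against 18.5% and 43.8% of all features). Under these 2 settings Ir54a (1.24 and 1.03) and Ir94a (0.90 and 0.85) passed above 0, against means of -0.14 and -0.057. The family median of 0.23 was 0.011 with the mutant-in-Cy3 arrays turned in sign, and otherwise 0.15 to 0.28. The difference of co-receptors from other genes (0.13) ran from 0.039 to 0.23 and stayed within 1 SD; it was 0.19 with Ir93a counted as a co-receptor and 0.098 to 0.20 with 1 array left out. Without replicate 4, the smallest adjusted p among members was 0.0605 in limma. With a single group of ratios, no paired analysis was possible because each array already pairs mutant with wild type. Signal over background could not be examined.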
